A study of Homo sapiens with 12 samples.

Results

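The inositol phosphate kinases are the enzymes that add phosphates to soluble inositol phosphates. The group described here comprises 10 human genes, namely ITPKA, ITPKB, ITPKC, IPMK, ITPK1, IPPK, IP6K1, IP6K2, PPIP5K1 and PPIP5K2. Members were found through the transcript accession that the array design gives each probe, which was matched to a RefSeq gene. In this way 15 of the 34127 gene probes on the array, and 10 of its 27522 gene names, were assigned to the group. Of the members, 6 had 1 probe, 3 had 2 probes (ITPK1, IPPK and IP6K2) and 1 had 3 probes (PPIP5K1). U2OS cells, a human osteosarcoma line, received 20 nM of a control siRNA or of siRNA against DBP5, GLE1 or IPPK, and RNA of the cytoplasmic fraction was read on 12 one-colour arrays. Each siRNA had 3 arrays, and each of 3 slides held 1 array of every siRNA. DBP5 is the RNA helicase listed on the array as DDX19B, and GLE1 is its activator at the nuclear pore. IPPK was both one of the kinases described and the target of 1 of the siRNAs.

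Phospholipase C releases the calcium-mobilising messenger inositol trisphosphate (IP3) from a membrane lipid. ITPKA, ITPKB and ITPKC, called the IP3 kinases here, phosphorylate IP3 at its 3-position, IPMK and ITPK1 carry the product on towards inositol pentakisphosphate (IP5), and IPPK adds the last ring phosphate to give inositol hexakisphosphate (IP6). The IP6 kinases and the PPIP5 kinases then build diphosphate groups on the ring, which makes the inositol pyrophosphates, molecules linked to phosphate and energy balance. IP6 binds GLE1 and with it stimulates DBP5 in the export of mRNA through the nuclear pore.

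Arrays of the same siRNA were more alike than arrays of different siRNAs. Pearson's r across probes, which are not independent replicates, was 0.996 to 0.9977 for arrays of the same siRNA and 0.967 to 0.9856 for arrays of different siRNAs. The share of probes well above background was 70.9% to 77.7% per array, and 70.9%, 73.8% and 72% on the IPPK siRNA arrays. Of 6 markers of the osteosarcoma lineage, 5 (VIM, COL1A1, SPARC, RUNX2 and ALPL) were well above background on all 12 arrays. Of 9 markers of other cell types, PTPRC and EPCAM were well above background on all 12 arrays, KRT5 was so on none and the other 6 on some. The log2 of their summed linear intensities was 9.64 to 9.90 on the control arrays, 9.26 to 9.40 with DBP5, 9.48 to 9.77 with GLE1 and 8.74 to 9.36 with IPPK siRNA, so the DBP5 and IPPK arrays lay below control. The log2 of the summed linear intensities of 3 nuclear-retained RNAs (MALAT1, KCNQ1OT1 and MEG3) was 12.78 to 12.81 on the control arrays, 13.16 to 13.37 with DBP5, 13.52 to 13.55 with GLE1 and 12.91 to 12.99 with IPPK siRNA, so each knock-down lay above control. Such sums weigh the brightest gene most, so a shift may be that of a single gene. The part of these shifts in the results below was not tested. The arrays measured cytoplasmic RNA alone, so a change in export, in the amount of an mRNA per cell and in the share of cells that contain it cannot be told apart. The labels do not say whether the 3 arrays of an siRNA came from separate cultures (the methods speak of independent array experiments), so the p-values measure the spread between these arrays. GLE1 mRNA was 0.102 ± 0.0283 of control in GLE1 knocked-down cells (SD, n = 3; limma adjusted p = 2.1e-08). Here and below, the SD of a ratio is that of the knock-down arrays over the control mean. It leaves out the spread of the control arrays and is not the error of the ratio. DDX19B was 0.0643 ± 0.00169 of control in DBP5 knocked-down cells (SD, n = 3; limma adjusted p = 6.9e-11). Its close paralogue DDX19A fell as well in these cells, to 0.0543 ± 0.00286 of control (limma adjusted p = 4.2e-11). Both were also lower in the other knock-downs, DDX19B at 0.498 and 0.872 of control and DDX19A at 0.555 and 0.302 with GLE1 and IPPK siRNA (limma adjusted p = 9.8e-08, 0.0133, 1.7e-07 and 2.9e-09).

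All 15 probes passed the filter on dim probes, and 14 were well above background on all 12 arrays. The exception was the dimmest PPIP5K1 probe. With DBP5 siRNA, 10 of the 15 probes differed from control at an adjusted p of 0.05 in limma, against 54.6% of all 25879 probes tested. Of these 10, 3 were lower (27% of all probes were) and 7 higher (27.6%). With GLE1 siRNA 12 differed, against 62.5%, of which 5 were lower (30.1%) and 7 higher (32.5%). With IPPK siRNA 10 differed, against 55.3%, of which 5 were lower (27.9%) and 5 higher (27.3%). Both probes of IPPK, the target of this siRNA, are among the 5 lower. The kinases thus differed from control in shares of 66.7%, 80% and 66.7%, with changes in both directions in each knock-down. The median log2 fold change of the 15 probes was 0.16, -0.08 and 0.19 with DBP5, GLE1 and IPPK siRNA, and that of all probes was -0.01, 0.03 and -0.02.

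Larger changes were counted most often in GLE1 knocked-down cells, though the difference between the counts was not tested. Probes past limma and at least 1.5-fold from control numbered 8 of 15 with GLE1 siRNA, against 34% of all probes. They numbered 4 of 15 with DBP5 siRNA, against 24.9%, and 4 of 15 with IPPK siRNA, against 25.9%. The only falls among the 4 with IPPK siRNA were those of the 2 probes of its own target, IPPK. The knock-down arrays did not overlap the control arrays in 9 probes with DBP5, 12 with GLE1 and 12 with IPPK siRNA, against 59.6%, 69.1% and 63.7% of all probes. Across the 3 knock-downs, ITPK1 (by 1 of its 2 probes) and PPIP5K2 were higher than control in all, as were 13.6% of all probes. The brighter IPPK probe was lower in all, as were 12% of all probes. In 6 of the 15 probes, those of ITPKA, ITPKC and IP6K1, the dimmer one of IPPK and both of IP6K2, the level was lower in at least 1 knock-down and higher in another, against 14.1% of all probes. The 3 comparisons share the same control arrays. Some of these patterns rest on calls that were lost under alternative settings, as given below. These are the calls of ITPK1 with DBP5, IP6K1 with each siRNA and the brighter IPPK probe with GLE1 siRNA. The plots of the values by array and of the fold changes show PPIP5K2 above and the brighter IPPK probe below control in each knock-down, and the IP3 kinases and IP6K2 on both sides of it.

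**Figure D1:**
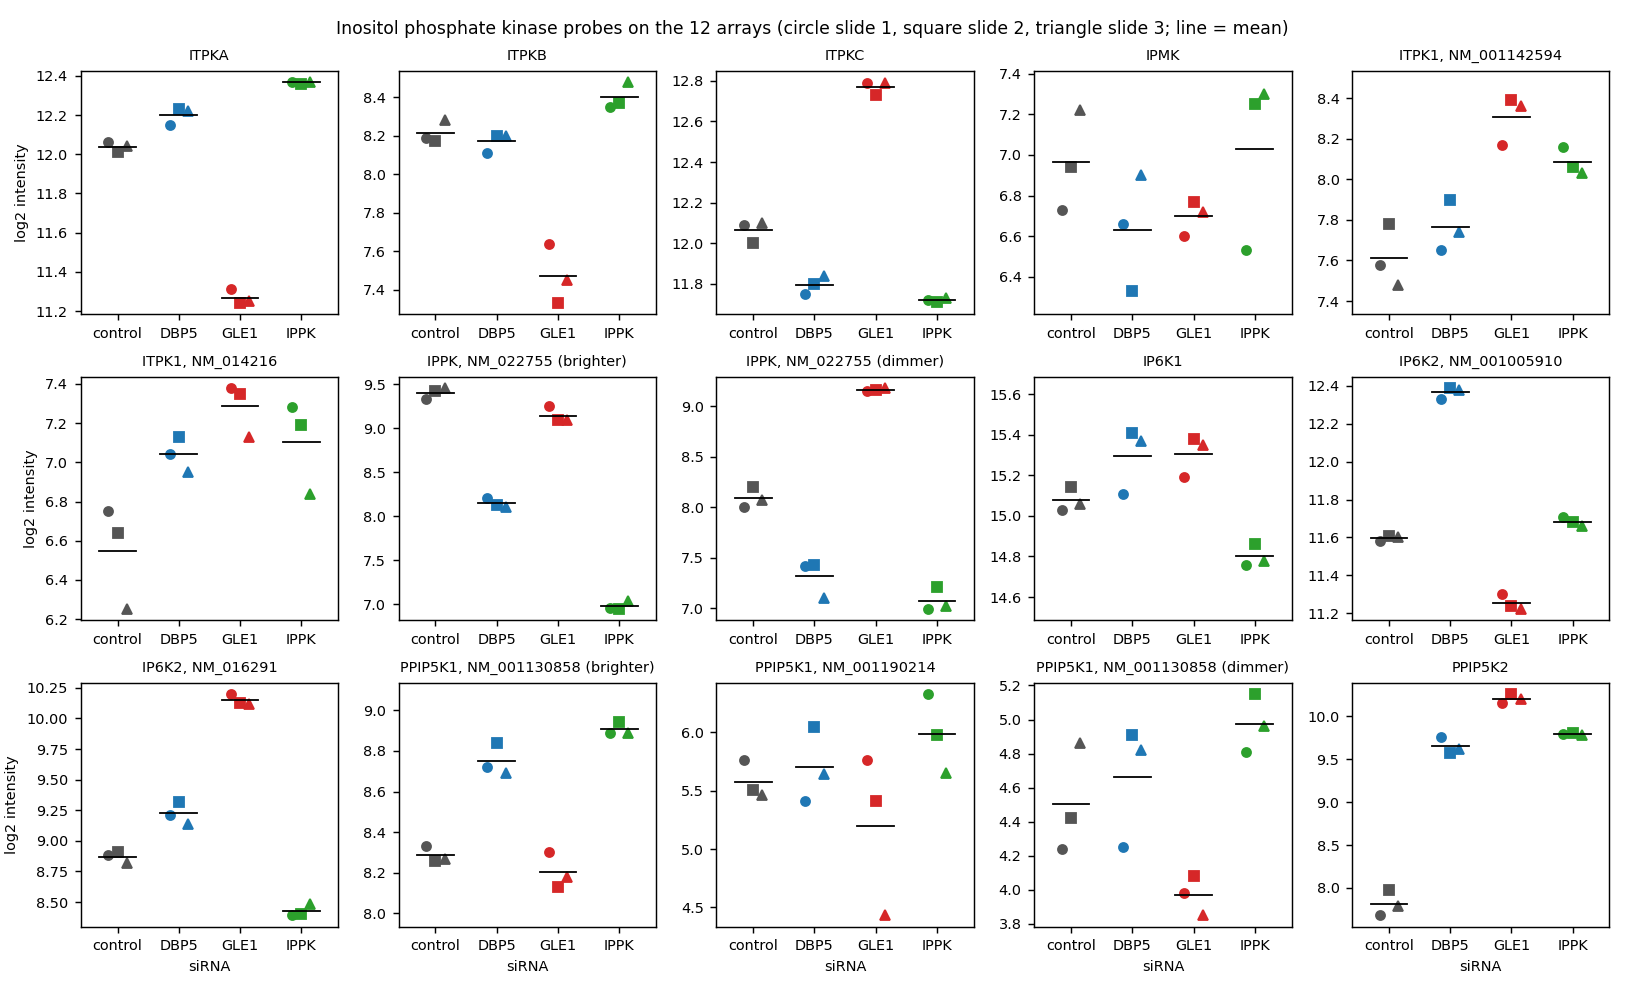
Normalized log2 intensity (vertical axis) of each of the 15 kinase probes on the 12 arrays, by siRNA (horizontal axis), with slides 1, 2 and 3 as circles, squares and triangles, means of 3 arrays as lines and a vertical scale of its own for each panel. All PPIP5K2 values of the knock-downs lie between 9.57 and 10.26, above the control values of 7.68 to 7.98.

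**Figure D2:**
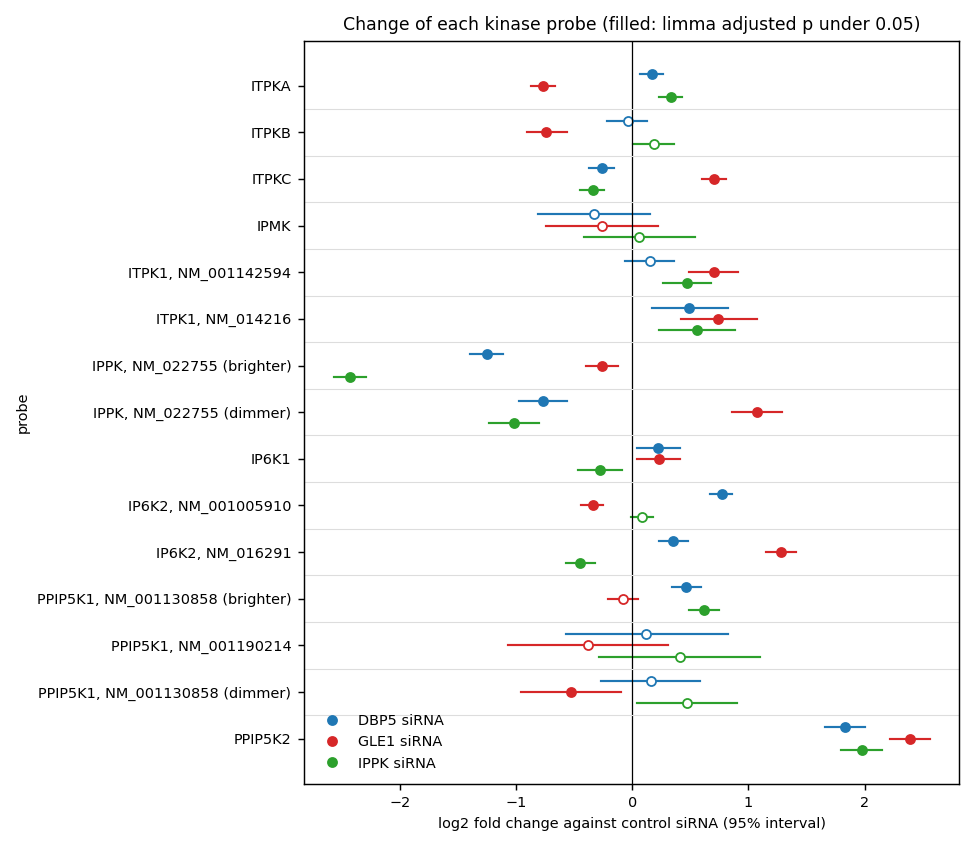
Log2 fold change against control siRNA (horizontal axis) of each kinase probe (vertical axis), with 95% intervals from limma, for DBP5, GLE1 and IPPK siRNA, with filled points past limma at an adjusted p of 0.05. PPIP5K2 lies at 1.83, 2.39 and 1.98, and the brighter IPPK probe at -1.25, -0.26 and -2.43.

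Among the 3 IP3 kinases, ITPKA and ITPKB fell and ITPKC rose with GLE1 siRNA, each on every array. ITPKA, an isoform that also binds actin filaments, had log2 intensities of 12.06, 12.01 and 12.04 on the control arrays, 12.15, 12.23 and 12.22 with DBP5, 11.31, 11.24 and 11.25 with GLE1 and 12.37, 12.36 and 12.37 with IPPK siRNA. The GLE1 arrays lay below all others and the IPPK arrays above all others. ITPKA was 0.586 ± 0.0161 of control with GLE1 siRNA (SD, n = 3; log2 fold change -0.77, limma adjusted p = 1.0e-07). It was 1.26 ± 0.00904 of control with IPPK siRNA (95% interval of the ratio 1.18 to 1.35, limma adjusted p = 8.9e-05). The rise with DBP5 siRNA was small, at 1.12 ± 0.0327 of control (limma adjusted p = 0.00834), and did not pass with only the 6 arrays compared in the fit (limma adjusted p = 0.0575) or with the processed values of the authors (limma adjusted p = 0.0836). The 4 levels of ITPKA were ordered GLE1, control, DBP5, IPPK, and every neighbouring pair differed in limma, with DBP5 against IPPK at an adjusted p of 0.00994.

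ITPKB, the isoform known for its role in lymphocyte development, read 8.19, 8.17 and 8.28 on the control arrays and 7.64, 7.33 and 7.45 with GLE1 siRNA. The groups did not overlap, and the level with GLE1 siRNA was 0.601 ± 0.067 of control (SD, n = 3; log2 fold change -0.74, limma adjusted p = 1.2e-05). With DBP5 siRNA it read 8.11, 8.20 and 8.20, overlapping the control arrays, with a 95% interval of the log2 fold change from -0.22 to 0.13. With IPPK siRNA it read 8.35, 8.37 and 8.48, above every control array, but the log2 fold change of 0.19 did not pass limma (adjusted p = 0.0663). It passed under 7 of 23 alternative settings, among them normexp (limma adjusted p = 0.0192), the processed values of the authors (0.0351), only the 6 arrays compared (0.0397) and the omission of GLE1 array 1 (0.0251) or GLE1 array 2 (0.0413).

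ITPKC, the isoform expressed in many tissues, moved opposite to ITPKA in each of the 3 comparisons with control. It read 12.09, 12 and 12.10 on the control arrays, 11.75, 11.80 and 11.84 with DBP5, 12.79, 12.73 and 12.79 with GLE1 and 11.72, 11.71 and 11.73 with IPPK siRNA. Each knock-down was clear of control. The level was 1.63 ± 0.0408 of control with GLE1 siRNA (SD, n = 3; log2 fold change 0.70, limma adjusted p = 3.3e-07). It was 0.832 ± 0.0251 with DBP5 siRNA (limma adjusted p = 7.1e-04) and 0.788 ± 0.00688 with IPPK siRNA (limma adjusted p = 1.1e-04), and the difference between these knock-downs did not pass (log2 difference 0.08, 95% interval -0.03 to 0.18, limma adjusted p = 0.193). Within the 3 slides the log2 difference between GLE1 and control was 0.70, 0.73 and 0.68 for ITPKC and -0.75, -0.77 and -0.79 for ITPKA.

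The stretches of 100 bases before the annotated starts of the IP3 kinases are shown because the genes moved in different directions with GLE1 siRNA, and that of PPIP5K2 because it had the largest rises among the members. RefSeq (GRCh38.p14) held promoter windows for all 10 members, 15 windows in all. Capitals mark GC boxes, searched as GGGCGG on either strand.
ITPKA, chr15:41493774-41493873, + strand: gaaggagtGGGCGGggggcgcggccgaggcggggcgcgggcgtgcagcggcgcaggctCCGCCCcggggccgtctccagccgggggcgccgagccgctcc
ITPKB, chr1:226739283-226739382, - strand: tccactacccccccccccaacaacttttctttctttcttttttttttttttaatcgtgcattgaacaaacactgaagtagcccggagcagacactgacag
ITPKC, chr19:40717012-40717111, + strand: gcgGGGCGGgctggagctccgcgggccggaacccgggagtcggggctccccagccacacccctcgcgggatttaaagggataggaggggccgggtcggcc
PPIP5K2, chr5:103120201-103120300, + strand: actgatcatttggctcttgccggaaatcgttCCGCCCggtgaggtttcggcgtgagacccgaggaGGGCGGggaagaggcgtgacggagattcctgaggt
The GC box was in 9 of the 15 member windows and in 31.3% of 35116 windows of all genes. CCAAT (either strand) was in 4 of the 15 and in 18.1% of all, and TATAAA (either strand) in 0 of the 15 and in 4.99% of all. Some windows of PPIP5K1 overlap, and a CCAAT site that they share is counted in each. The windows of the members held 41% to 86% G and C, against a median of 60% over all windows. ITPKA and ITPKB, which both fell with GLE1 siRNA, thus had different windows, with 86% and 43% G and C.

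IPMK, the multikinase that carries IP3 on to IP5 and also phosphorylates a membrane phosphoinositide, did not pass limma against control in any knock-down by its single probe. It read 6.73, 6.94 and 7.22 on the control arrays, 6.66, 6.33 and 6.90 with DBP5, 6.60, 6.77 and 6.72 with GLE1 and 6.53, 7.25 and 7.30 with IPPK siRNA. All groups overlapped. The 95% intervals of the log2 fold change were -0.81 to 0.15, -0.74 to 0.22 and -0.42 to 0.54 with DBP5, GLE1 and IPPK siRNA, and changes within them could not be told from none with this dim probe.

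ITPK1, which phosphorylates inositol tris- and tetrakisphosphates on the way to IP5, was higher with GLE1 and IPPK siRNA by both probes. The probe designed on NM_001142594 read 7.58, 7.78 and 7.48 on the control arrays, 7.65, 7.90 and 7.74 with DBP5, 8.17, 8.39 and 8.36 with GLE1 and 8.16, 8.06 and 8.03 with IPPK siRNA. The probe designed on NM_014216 read 6.75, 6.64 and 6.25 on the control arrays, 7.04, 7.13 and 6.95 with DBP5, 7.38, 7.35 and 7.13 with GLE1 and 7.28, 7.19 and 6.84 with IPPK siRNA. By the first probe the GLE1 and IPPK arrays lay above control while the DBP5 arrays overlapped it, and by the second all knock-downs lay above control. The log2 fold changes with GLE1 siRNA were close in both probes, at 0.70 (limma adjusted p = 7.9e-05) and 0.74 (limma adjusted p = 0.00113). With IPPK siRNA they were 0.47 and 0.56 (limma adjusted p = 0.00166 and 0.00791). With DBP5 siRNA they were 0.15 and 0.49, of which the second passed (limma adjusted p = 0.0151), but not without control array 3 (limma adjusted p = 0.0548), without DBP5 array 2 (limma adjusted p = 0.0515) or with scaling to the 75th percentile (limma adjusted p = 0.0537). With normexp or the processed values of the authors the sizes were smaller, down to 0.46 and 0.48 with GLE1, 0.22 and 0.33 with IPPK and, for the second probe, 0.30 with DBP5 siRNA, each still past the threshold. With the slide as a block, the second probe also differed between DBP5 and GLE1 knock-down (limma adjusted p = 0.0212 in place of 0.181), and the first between GLE1 and IPPK knock-down (0.0366 in place of 0.0579).

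IPPK, the enzyme that makes IP6, was lower in cells treated with its own siRNA by both of its probes, which were designed on the same transcript, NM_022755. The siRNAs that the study designed against IPPK are shown because their target is a member. Capitals mark bases 2 to 8 of each antisense strand as designed, and whether these bases act as the seed in the cells was not tested. Which of them was used for the arrays is not given in the sources used here.
IPPK #1 antisense: uUGCUGAUcugcuuccacuucccaguu
IPPK #1 sense: cugggaaguggaagcagaucagcaa
IPPK #2 antisense: aAUAAACCcacauuuuggcuu
IPPK #2 sense: gccaaaauguggguuuauucc
The 2 designs differ in the marked bases and in length, and the last 2 bases of the IPPK #1 sense strand are DNA.

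The brighter IPPK probe read 9.33, 9.42 and 9.46 on the control arrays, 8.21, 8.13 and 8.10 with DBP5, 9.25, 9.09 and 9.09 with GLE1 and 6.95, 6.94 and 7.04 with IPPK siRNA. The 4 groups were clear of each other, in the order IPPK, DBP5, GLE1, control. By this probe the level with IPPK siRNA was 0.186 ± 0.00762 of control (SD, n = 3; log2 fold change -2.43, limma adjusted p = 1.5e-09). IPPK was also at 0.419 ± 0.0168 of control with DBP5 siRNA (log2 fold change -1.25, limma adjusted p = 8.6e-08). Only 2.44% of all probes fell as much or more in that comparison. With GLE1 siRNA the brighter probe was at 0.833 ± 0.0537 of control (limma adjusted p = 0.004), with log2 differences of -0.08, -0.33 and -0.37 within the 3 slides.

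The dimmer IPPK probe read 8.00, 8.20 and 8.07 on the control arrays, 7.42, 7.43 and 7.10 with DBP5, 9.15, 9.16 and 9.18 with GLE1 and 6.99, 7.21 and 7.02 with IPPK siRNA. Here the GLE1 arrays lay above all control arrays, while those of the other knock-downs lay below. The ratio to control was 0.495 ± 0.0406 with IPPK siRNA (SD, n = 3; limma adjusted p = 6.9e-06) and 0.586 ± 0.0729 with DBP5 siRNA (limma adjusted p = 5.6e-05). With GLE1 siRNA it was 2.11 ± 0.0204 (95% interval of the ratio 1.82 to 2.44, log2 fold change 1.07, limma adjusted p = 3.1e-06). The direction of IPPK with GLE1 siRNA thus depends on the probe, and no direction is given for the gene. The dimmer probe did not separate DBP5 from IPPK knock-down past the threshold (log2 difference 0.25, limma adjusted p = 0.0569), though it did with the slide as a block (limma adjusted p = 0.0345).

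**Figure D3:**
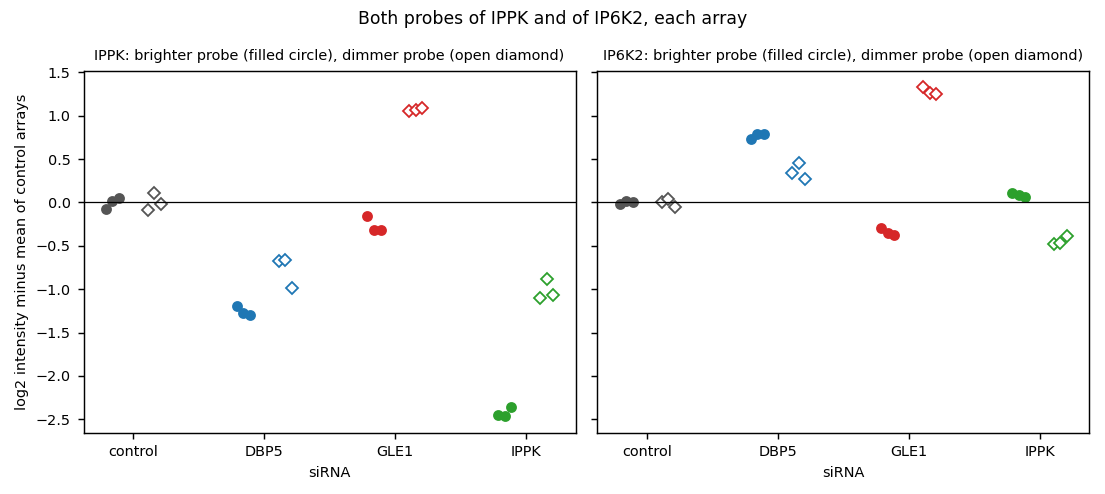
Log2 intensity minus the mean of the 3 control arrays (vertical axis) for the brighter (filled circles) and dimmer (open diamonds) probe of IPPK and of IP6K2, each array, by siRNA (horizontal axis). With GLE1 siRNA the probes of each gene lie on opposite sides of control, at -0.26 and 1.07 for IPPK and at -0.34 and 1.28 for IP6K2.

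The IP6 kinases add a phosphate to a phosphate of IP6 and so form a diphosphate. IP6K1 read 15.03, 15.14 and 15.06 on the control arrays, 15.11, 15.41 and 15.37 with DBP5, 15.19, 15.38 and 15.35 with GLE1 and 14.76, 14.86 and 14.78 with IPPK siRNA. The IPPK arrays lay below all others. The ratio to control was 0.824 ± 0.0294 with IPPK siRNA (SD, n = 3; log2 fold change -0.28, limma adjusted p = 0.0153), and the log2 difference was -0.28 within each of the 3 slides. This call was lost without control array 2 (limma adjusted p = 0.0532). With DBP5 and GLE1 siRNA IP6K1 was at 1.17 ± 0.128 and 1.17 ± 0.0808 of control (limma adjusted p = 0.0443 and 0.0348), and these calls were lost under 17 and 9 of 23 alternative settings, among them the processed values of the authors (limma adjusted p = 0.232 and 0.247). IP6K1 was higher with DBP5 and with GLE1 than with IPPK siRNA, with log2 differences of 0.50 and 0.51 (limma adjusted p = 5.6e-04 and 3.5e-04).

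IP6K2, the IP6 kinase with a known role in cell death, was measured by probes for different transcript records that disagreed with GLE1 siRNA. The probe on NM_001005910 read 11.58, 11.61 and 11.60 on the control arrays, 12.33, 12.39 and 12.38 with DBP5, 11.30, 11.24 and 11.22 with GLE1 and 11.71, 11.68 and 11.66 with IPPK siRNA. The probe on NM_016291 read 8.88, 8.91 and 8.82 on the control arrays, 9.21, 9.32 and 9.14 with DBP5, 10.20, 10.13 and 10.12 with GLE1 and 8.39, 8.40 and 8.48 with IPPK siRNA. By both probes the DBP5 arrays lay above control, at 1.7 ± 0.0371 and 1.28 ± 0.0812 of its level (SD, n = 3; limma adjusted p = 1.7e-07 and 3.6e-04). The GLE1 arrays lay below control by the first probe, at 0.789 ± 0.0232 (limma adjusted p = 4.1e-05), and above it by the second, at 2.43 ± 0.0743 (limma adjusted p = 1.7e-08). Within the 3 slides the second probe's log2 difference was 1.32, 1.22 and 1.30. With IPPK siRNA the second probe was at 0.734 ± 0.0231 of control (limma adjusted p = 6.8e-05), while the first, at 1.06 ± 0.0163, did not pass (limma adjusted p = 0.124). Each of the called IP6K2 values kept its direction and its call under every alternative setting tried. The plot of both probes of IPPK and IP6K2 shows the opposite displacement with GLE1 siRNA beside the shared displacement with DBP5 siRNA.

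The PPIP5 kinases phosphorylate another ring phosphate and so form a further diphosphate, which gives the most highly phosphorylated members of the pathway. PPIP5K2 showed the largest rise of any member in every knock-down. It read 7.68, 7.98 and 7.79 on the control arrays, 9.76, 9.57 and 9.62 with DBP5, 10.16, 10.26 and 10.20 with GLE1 and 9.79, 9.81 and 9.78 with IPPK siRNA. All 9 knock-down arrays lay above all control arrays. The level was 3.56 ± 0.248 of control with DBP5, 5.23 ± 0.183 with GLE1 and 3.93 ± 0.0429 with IPPK siRNA (SD, n = 3 each; limma adjusted p = 2.8e-08, 2.1e-09 and 1.2e-08). The 95% intervals of these ratios were 3.16 to 4.01, 4.65 to 5.89 and 3.49 to 4.43. Of all 25879 probes, 0.839%, 0.684% and 0.889% rose as much or more in the 3 comparisons.

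The PPIP5K2 probe is printed on 10 spots of each array, and the SD of log2 intensity between these spots was 0.0174 to 0.144, a measure of the noise within an array. Between the 3 arrays of an siRNA the SD was 0.0157 to 0.148. PPIP5K2 was higher with GLE1 than with DBP5 siRNA (log2 difference of DBP5 minus GLE1 -0.56, limma adjusted p = 1.2e-04) and than with IPPK siRNA (0.41, limma adjusted p = 8.8e-04). DBP5 and IPPK knock-down did not differ past the threshold, with a 95% interval of -0.32 to 0.03 (limma adjusted p = 0.152). Within the 3 slides the log2 difference from control was 2.08, 1.59 and 1.83 for DBP5, 2.47, 2.28 and 2.41 for GLE1 and 2.10, 1.84 and 1.99 for IPPK knock-down. Over all alternative settings the log2 fold change was 1.52 to 1.91, 2.04 to 2.47 and 1.64 to 2.06, past the threshold in each.

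PPIP5K1 had 3 probes, and RefSeq lists a pseudogene copy of it, PPIP5K1P1, whose transcripts the probes may share, so its values are uncertain. The same table lists pseudogenes of IPMK, ITPK1 and IPPK (IPMKP1, ITPK1P1 and IPPKP1), and whether their transcripts reach those probes was not tested. The brightest, on NM_001130858, read 8.33, 8.26 and 8.27 on the control arrays, 8.72, 8.84 and 8.69 with DBP5, 8.30, 8.13 and 8.18 with GLE1 and 8.89, 8.94 and 8.89 with IPPK siRNA. The DBP5 and IPPK arrays lay above control and the GLE1 arrays overlapped it. The ratio to control was 1.38 ± 0.0729 with DBP5 siRNA (SD, n = 3; limma adjusted p = 5.7e-05) and 1.54 ± 0.0353 with IPPK siRNA (limma adjusted p = 6.2e-06). Their difference passed narrowly (log2 difference -0.16, limma adjusted p = 0.0447) but not with the slide as a block (limma adjusted p = 0.0525).

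The other PPIP5K1 probes were dim and varied more. The probe on NM_001190214 read 5.76, 5.51 and 5.46 on the control arrays, 5.41, 6.05 and 5.64 with DBP5, 5.76, 5.41 and 4.43 with GLE1 and 6.33, 5.98 and 5.65 with IPPK siRNA, and did not pass limma against control in any knock-down. The dimmest, the other one on NM_001130858, read 4.24, 4.42 and 4.86 on the control arrays, 4.25, 4.91 and 4.82 with DBP5, 3.98, 4.08 and 3.85 with GLE1 and 4.81, 5.15 and 4.96 with IPPK siRNA. It was well above background on 1 of the 3 GLE1 arrays. Its log2 fold change of -0.53 with GLE1 siRNA passed limma (adjusted p = 0.033), but it did not pass without control array 2 or 3 or without GLE1 array 1 or 3 (limma adjusted p = 0.052, 0.131, 0.0681 and 0.0967) or with scaling to the 75th percentile (0.0568), and it shrank to -0.08 with normexp and -0.09 with the authors' processed table. The log2 fold change of 0.47 with IPPK siRNA did not pass (limma adjusted p = 0.0612) but did with the slide as a block (0.0279), without control array 3 (0.0159) and without DBP5 array 1 (0.0251). All 3 probes gave log2 fold changes above 0 with DBP5 and IPPK siRNA and below 0 with GLE1 siRNA, but most did not pass, and the NM_001190214 probe changed direction under some settings with DBP5 and GLE1 siRNA.

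Compared with each other, the knock-downs differed in 11 of the 15 kinase probes between DBP5 and GLE1 (54.8% of all probes), in 8 between DBP5 and IPPK (49%) and in 12 between GLE1 and IPPK (60.8%), at an adjusted p of 0.05 in limma. Between DBP5 and IPPK the count was 5 without DBP5 array 1 (49.1% of all probes) and 3 with the methods' t-test after adjustment (18.2%). Those at least 1.5-fold apart numbered 8, 3 and 9, against 25.1%, 19.1% and 29.8% of all probes. The 3 between DBP5 and IPPK knock-down were the brighter probe of IPPK, at 1.17 on the log2 scale, and both probes of IP6K2, at 0.68 and 0.80, all higher with DBP5 siRNA. Between GLE1 and IPPK knock-down the differences included ITPKA at -1.10, ITPKB at -0.92, ITPKC at 1.05 and the NM_016291 probe of IP6K2 at 1.73.

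Some genes outside the group had nearly the same pattern over the 12 arrays as a member. For the 4 members with the largest fold changes, the 3 genes of highest Pearson's r were taken from 14984 genes measured on all arrays. They were PAX8-AS1, SOAT2 and DCP1A for the brighter IPPK probe (r = 0.993, 0.993 and 0.991). They were CLDN12, PTPRU and G3BP2 for PPIP5K2 (r = 0.997, 0.997 and 0.996), LATS2, CRYAB and SCX for the NM_016291 probe of IP6K2 (r = 0.993, 0.992 and 0.991) and MDC1, COPS3 and STIMATE for ITPKA (r = 0.995, 0.995 and 0.994). The arrays of 1 siRNA share their treatment, so these values describe likeness of 4 group levels.

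Other genes of the pathway were read through their brightest probe. Of 43 genes listed, 39 could be tested. PLCH1, PLCZ1, SLC5A11 and SLC2A13 could not. With DBP5 siRNA 7 were lower and 17 higher than control, against 27.1% and 27.3% of all genes in the respective directions. With GLE1 siRNA 12 were lower and 21 higher, against 30.4% and 32%, and with IPPK siRNA 9 were lower and 15 higher, against 28.2% and 27.3%. The median log2 fold change of the 39 was 0.11, 0.32 and 0.03, and that of all genes -0.02, 0.03 and -0.03.

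The phospholipases C, which make IP3, changed in both directions. Of 11 tested, 2 were lower and 6 higher with DBP5, 2 and 7 with GLE1 and 3 and 4 with IPPK siRNA, against 27.1% and 27.3%, 30.4% and 32%, and 28.2% and 27.3% of all genes. PLCD4 fell most with DBP5 and IPPK siRNA, with log2 fold changes of -1.85 and -1.97 (limma adjusted p = 1.2e-08 and 5.9e-09), and PLCG1 fell most with GLE1 siRNA, at -0.43 (limma adjusted p = 3.6e-04). The largest rises were those of PLCB3 with DBP5 (1.71, limma adjusted p = 3.6e-06), PLCD3 with GLE1 (1.72, limma adjusted p = 1.3e-07) and PLCG2 with IPPK siRNA (1.30, limma adjusted p = 3.2e-07). Of the 3 IP3 receptors, the calcium channels that IP3 opens, ITPR1 was lower with DBP5 and GLE1 siRNA (-0.85 and -0.34, limma adjusted p = 6.2e-07 and 4.0e-04). ITPR3 was higher in all 3 knock-downs (1.00, 0.87 and 0.29, limma adjusted p = 1.6e-07, 2.1e-07 and 0.00104). ITPR2 rose most with IPPK siRNA (1.46, limma adjusted p = 1.0e-05), and its rise with GLE1 siRNA passed (0.36, limma adjusted p = 0.0489) but not with the slide as a block (0.0649).

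Of the 9 phosphatases of inositol phosphates, 1 was lower and 6 higher with DBP5, 2 and 5 with GLE1 and 0 and 5 with IPPK siRNA, where of all genes 27.1% and 27.3%, 30.4% and 32%, and 28.2% and 27.3% were called. INPP5A, which removes the 5-phosphate of IP3, rose most in each, with log2 fold changes of 2.67, 2.21 and 2.07 (limma adjusted p = 1.7e-09, 1.6e-09 and 4.4e-09). MINPP1, which removes phosphates from IP6 and other highly phosphorylated forms, was lower with DBP5 and GLE1 siRNA (-0.67 and -0.40, limma adjusted p = 8.3e-04 and 0.0152). The 4 phosphatases that act on diphosphoinositol phosphates had log2 fold changes of at most 0.63 in size. NUDT3 was lower with DBP5 and GLE1 siRNA (-0.18 and -0.28, limma adjusted p = 0.0318 and 0.0025), NUDT4 was lower with IPPK siRNA (-0.42, limma adjusted p = 5.6e-05), and NUDT11 was the higher of 2 that rose with GLE1 siRNA (0.63, limma adjusted p = 3.2e-06).

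Of the genes that supply inositol, the transporter SLC5A3 was lower with GLE1 and IPPK siRNA (-0.72 and -0.69, limma adjusted p = 2.8e-04 and 4.9e-04) and the synthase ISYNA1 was higher with GLE1 siRNA (0.46, limma adjusted p = 0.00455). Neither passed with DBP5 siRNA. Of 9 proteins that bind inositol phosphates, 2 were lower and 3 higher with DBP5, 5 and 3 with GLE1 and 4 and 4 with IPPK siRNA, the siRNA target GLE1 included. The shares of all genes were again 27.1% and 27.3%, 30.4% and 32%, and 28.2% and 27.3%. ADARB1, an RNA editing enzyme with IP6 in its core, rose most with GLE1 siRNA (1.71, limma adjusted p = 2.4e-08), and beside the target itself HDAC1, a histone deacetylase, fell most (-1.33, limma adjusted p = 8.5e-08). HDAC2, another deacetylase, rose most with DBP5 siRNA (0.40, limma adjusted p = 6.2e-04), where HDAC3 fell most (-0.30, limma adjusted p = 0.00558). With IPPK siRNA HDAC1 and GLE1 fell most (each -0.49, limma adjusted p = 2.3e-04 and 0.0185), and XPR1, a phosphate exporter that senses inositol pyrophosphates, rose most (0.41, limma adjusted p = 7.3e-05). IP6K3, the IP6 kinase that was not among the members, was dim, and was well above background on 2 of the 3 control arrays and 2 of the 3 DBP5 arrays. It read 4.95, 4.86 and 3.84 on the control arrays and 6.09, 6.20 and 5.61 with GLE1 siRNA, a log2 fold change of 1.42 with a 95% interval from 0.38 to 2.45 (limma adjusted p = 0.0211). IP6K3 passed the filter on dim probes only through the GLE1 and IPPK arrays. The filter thus favoured this call, which is counted among the pathway genes higher with GLE1 siRNA.

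**Figure D4:**
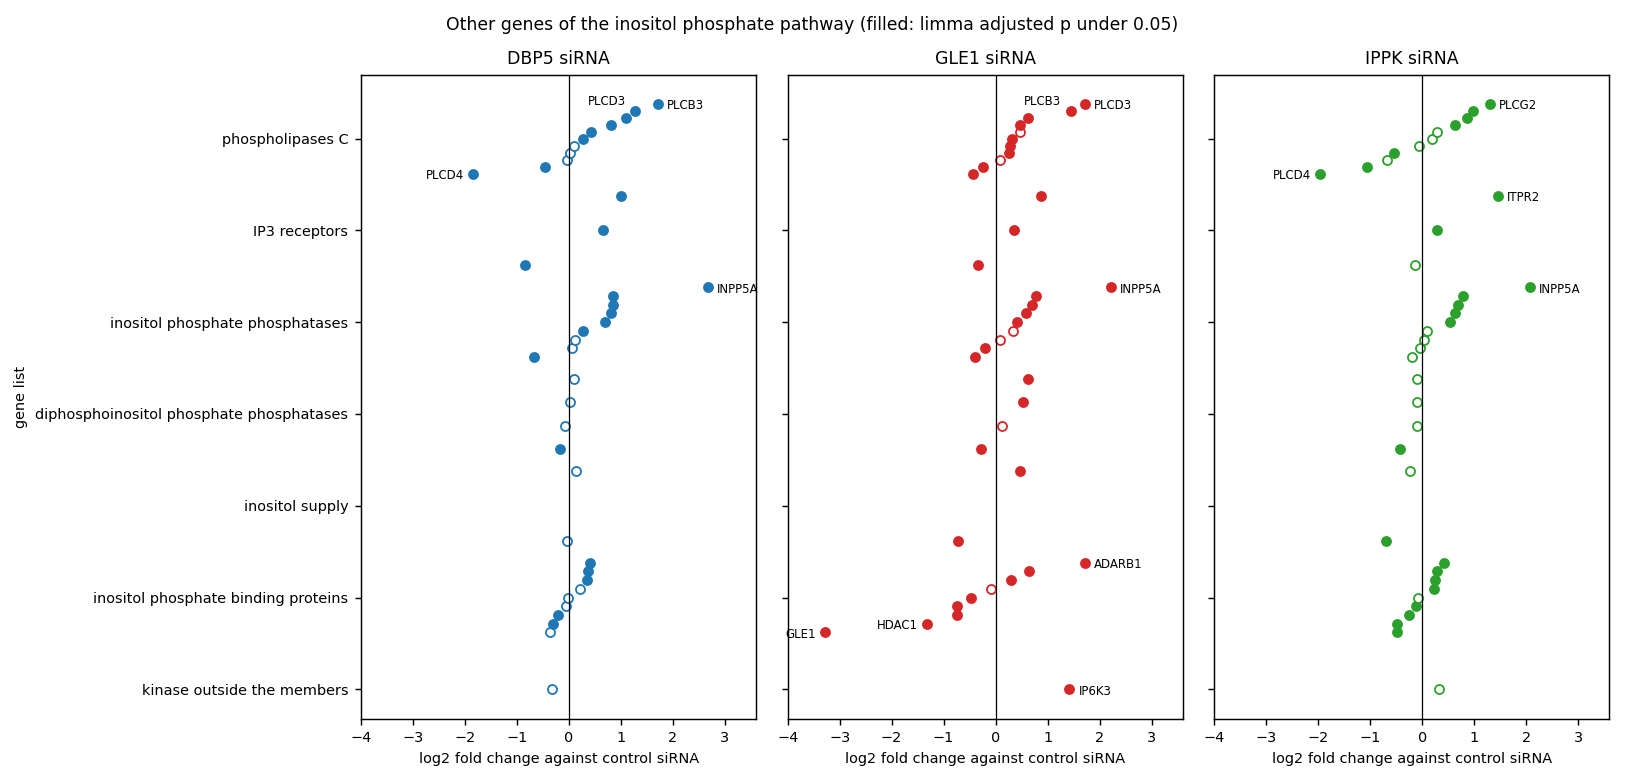
Log2 fold change against control siRNA (horizontal axis) of the 39 other pathway genes tested, by gene list (vertical axis), 1 panel for each knock-down, where filled points passed limma at an adjusted p of 0.05 and names mark called genes at least 1.2 from 0. INPP5A is the point farthest to the right in each panel, at 2.67, 2.21 and 2.07.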

How the data were processed

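The data were 12 one-colour arrays of cytoplasmic RNA from U2OS cells, 3 per siRNA. The authors deposited Feature Extraction 10.7.3.1 output (array design on hg19) with a linear intensity per spot after background subtraction, and a table of log2 values, which followed the median spot signal without subtraction (Pearson's r at least 0.99982) and served as an alternative. The methods state LOESS normalization in R.

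Control spots and the 169 to 358 outlier spots per array were left out, 0 spots were saturated, log2 intensities were normalized by cyclic loess, and spots of a probe were averaged. A probe was kept if all 3 arrays of some siRNA read it well above background. Kept probes were tested with limma 3.58.1 (R 4.3.3) over all 12 arrays, two-sided, with 1 mean per siRNA and Benjamini-Hochberg adjustment within each comparison at 0.05. A ratio is 2 to the power of the log2 fold change, with the SD over the 3 knock-down arrays' own ratios to the control mean. This SD omits the spread of the control arrays and the pairing by slide. Every member probe is reported. Pathway genes named are the largest fall and rise of each list per knock-down, among called genes measured on all arrays. Other pathway genes were named after their values were seen. RefSeq (GRCh38.p14) named 77.5% of 34127 probes and gave the promoter windows. The siRNA sequences are those of the study's design table. The members and lists were chosen with earlier results of these data known.

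Replicate numbers mark slides: deviations of same-numbered arrays correlated at 0.309 to 0.519 (18 pairs), others at -0.327 to -0.008 (36 pairs), so the numbers pair the arrays. On simulated data 84% to 87.5% of 200 probes changed by 1 on the log2 scale were recovered among 25879, with 7 to 14 false calls per comparison. The simulation had independent noise, no slide effect and few changed probes, while 54.6% to 62.5% of probes were called against control in these data. Its rates therefore need not hold here. The alternatives tried were quantile normalization, scaling by the 75th percentile, normexp (offset 50, on the median signal, since the files hold no mean signal), the authors' values, other filters, 1 value per gene, the block, fits restricted to the 6 arrays of a comparison, omission of each array and the methods' t-test (two-sided, paired), which the study names in its general statistics and not for the arrays, whose gene lists came from rank products. The number of arrays and the signal over background limit precision.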

Additional observations from a re-analysis of the deposited data

How the results depend on the processing

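Of the 45 log2 fold changes of kinase probes against control, 28 kept their direction and their side of the threshold under every alternative tried. Another 11 lost the call under at least 1 alternative: the 6 given above and, under the methods' t-test alone, ITPKC, the dimmer IPPK probe and the brightest PPIP5K1 probe after DBP5, the brighter IPPK probe after GLE1 and the NM_001142594 probe of ITPK1 after IPPK knock-down. A further 3 gained the call and 3, none of them called, changed direction. The last were IPMK after IPPK knock-down (-0.01 with the 75th percentile, -0.04 with normexp, -0.03 with the authors' values, and leaving out 1 array -0.07 to 0.31) and the NM_001190214 probe of PPIP5K1 (after DBP5 knock-down -0.01 with normexp and -0.05 to 0.27 leaving out 1 array, and after GLE1 knock-down -0.66 to 0.01 leaving out 1 array).

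With the methods' t-test, paired and adjusted by Benjamini-Hochberg, the calls were 1 lower and 3 higher after DBP5 knock-down (12% of all probes each), 3 lower after GLE1 knock-down (22.5%), 7 between DBP5 and GLE1 (24.5%) and 3 between DBP5 and IPPK knock-down (18.2%), so calls over all probes fell too. Unadjusted, it called 4 higher after DBP5 (22.8%) and 3 lower after GLE1 knock-down (28.1%). With 1 value per gene there are 10 values in place of 15: the brightest probe gave 4 higher after GLE1 (32.1% of all genes) and 3 lower after IPPK knock-down (28.2%), and the mean of probes 2 lower after GLE1 knock-down (30.3%). Leaving out 1 array gave 5 to 8 calls between DBP5 and IPPK knock-down (5 without DBP5 array 1; 43.6% to 49.1% of all probes), 11 between DBP5 and GLE1 (49.8% to 55.8%) and 11 to 13 between GLE1 and IPPK (55.7% to 62.1%). Against control it gave 3 lower and 5 to 7 higher after DBP5, 4 to 5 and 6 to 7 after GLE1, and 4 to 5 and 5 to 6 after IPPK knock-down, with 50.2% to 55.3%, 58.3% to 63.5% and 50.6% to 56.6% of all probes called in either direction.

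With the replicate block, in which slides pair the arrays, 5 of 90 calls of kinase probes changed, each given above, and the counts were 3 lower and 7 higher after DBP5, 5 and 7 after GLE1 and 5 and 6 after IPPK knock-down, against 29.1% and 29%, 31.6% and 34.6%, and 30.1% and 29.1% of all probes. Of 117 calls of pathway genes 5 changed, PLCB4, ITPR1 and ISYNA1 after IPPK knock-down and INPP5B after GLE1 knock-down gaining it (limma adjusted p = 0.0261, 0.0387, 0.0248 and 0.0403) and ITPR2 after GLE1 knock-down losing it.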
